A study of Mus musculus with 40 samples.

Results

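Regulatory T cells (Treg) of wild type (WT) mice were stimulated on plates coated with Sema4a-Ig, a fusion of semaphorin-4a with an immunoglobulin part, or with control IgG1, and 16 of the 40 arrays of the series measured their RNA. These 16 arrays form 8 pairs, each of 1 IgG1 and 1 Sema4a-Ig array whose titles carry neighbouring codes. They were chosen by their titles, and no measured value entered the choice. The cells were CD4+ CD45RBlo Foxp3-YFP+ and were sorted from the spleen and peripheral lymph nodes of C57Bl/6 mice with the genotype Foxp3-YFPiCre, in which the Foxp3 gene drives a YFP-tagged Cre recombinase. Every culture received plate-bound antibody to CD3 at 1 µg/mL, dissolved antibody to CD28 at 2 µg/mL and human IL-2 at 100 U/mL, with the fusion protein or IgG1 at 10 µg/mL. The controls are therefore stimulated Treg, and the comparison shows what the ligand added to that stimulation. No source used here gives the time in culture or the age of the mice.

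For comparison, 16 further arrays (8 pairs) hold the same treatment of Treg labelled Nrp fl/fl x Foxp3-YFP-iCre (KO), in which the floxed gene of neuropilin-1 can be deleted by the Foxp3-driven Cre. A separate experiment of 8 arrays on another array type used Foxp3GFP mice and 48 h of culture. Its arrays are 3 from activated Treg, 3 from resting Treg and 2 from conventional T cells at rest. The Sema4a-Ig array of WT pair 2 carries the KO genotype in one label and WT in its title, so results are also given without that pair. Whether the pairs are separate animals or separate cultures is not stated in the labels. The p-values below therefore speak of the spread among these arrays, and that spread may be technical.

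Treg are CD4 T cells that restrain immune responses, and the transcription factor Foxp3 defines them. Neuropilin-1 (Nrp1) is a surface receptor carried by many Treg, and semaphorin-4a is a membrane protein of immune cells that can bind it. The series title links this axis to Treg stability and function. In T cells, FOXO factors and Klf2 are active in quiescent cells, and Klf2 drives receptors that guide cells out of lymphoid organs, while T cell receptor signals switch on Egr, Nr4a and AP-1 factors, cytokines and growth.

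The deposited values are log2 signals, in which a difference of 1 is a doubling. At every probe set the mean of the 2 arrays of a pair was the same in all 16 pairs, WT and KO, within 6e-05. Only the Sema4a-Ig minus IgG1 difference of each pair therefore carries information. Signal levels given below are centred on this mean of WT and KO arrays, so they are not levels of WT Treg alone. The values of a pair lie at equal distances above and below a common mean. The 2 groups therefore do not overlap exactly when all 8 differences have the same sign. For the same reason the SD and range given below for each group only mirror the spread of the pair differences. They do not show how expression varied between replicates, which the equal pair means hide. Array means ran from 4.783 to 4.8. The 23 nonspecific control probe sets had a median of 2.29 and a highest value of 3.95, and a gene under 3.95 cannot be told from background with confidence. Among 7143 genes with a mean under that value 0.588% were called in the comparison of the treatments, against 9.52% of the others.

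The sorted cells carried the RNA of T cells and of Treg, with 1 exception. The median signal with IgG1 was 10.98 for Ikzf2, which encodes the Treg factor Helios, 11.03 for the inhibitory receptor gene Ctla4 and 10.21 for Il2ra, a chain of the IL-2 receptor. The Foxp3 probe set gave 3.49 to 3.76 with IgG1 and 3.33 to 3.60 with Sema4a-Ig, all under the highest nonspecific control, so Foxp3 RNA was not measured reliably here. Its difference of -0.13 ± 0.09 (SE, 8 pairs; adjusted p = 0.446) says nothing about the Foxp3 level.

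Among 17097 genes, limma called 990 (5.79%) different between Sema4a-Ig and IgG1 in WT Treg at an adjusted p of 0.05, with 498 (2.91%) higher and 492 (2.88%) lower. Most differences were small. The median was 0.42 for the higher and -0.41 for the lower genes, 152 rose by at least 0.5 and 114 fell by at least 0.5, and only 5 genes reached 1 in size. Of the called genes 356 were higher and 313 lower in all 8 pairs, against 518 (3.03%) and 745 (4.36%) of all genes. The median difference over all genes was -0.01.

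Pairs contributed unequally. The SD of the differences over genes was highest in pair 3 (0.498) and pair 1 (0.443) and lowest in pair 5 (0.246). The median difference of the 498 higher genes was 0.76 in pair 3 and 0.19 in pair 5, and that of the 492 lower genes was -0.85 and -0.17. The count of called genes was 258 without pair 3 (198 higher, 60 lower), 413 without pair 7 (249 and 164), 538 without pair 1 (349 and 189) and 677 without pair 2 (374 and 303). When any single pair was left out, all 990 genes kept their sign and each had an unadjusted p under 0.05. The genes were chosen on these same pairs, so this follows largely from that choice. Other settings ended the calls of some genes named below. With a trend in the prior variance these were, among the 30 genes named by size, Astx6, Xcl1, Rgs16, Ifng, Atf3 and Csf2. With the 8 WT pairs alone 52 of the 165 called genes that the lists and naming rules hold lost their call, with array weights 25, with the trend 43 and with the mean of all probe sets of a gene 17.

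RNA of myeloid markers was also higher with Sema4a-Ig. Of 20 such markers 16 had a positive difference (median 0.14), and 4 were called: Lyz2 (0.81), which encodes lysozyme, Ms4a6c (0.47), Tyrobp (0.39) and the protease gene Ctss (0.37). The call of Tyrobp was lost without pair 1, 2, 3, 6, 7 or 8. The mean log2 signal of the 20 markers was 4.76 to 5.10 over the IgG1 arrays and 4.92 to 5.26 over the Sema4a-Ig arrays, and 9 of them, among them Itgam, Spi1, Cd14, Adgre1, Mpo and Elane, lay under the highest nonspecific control. The score of the whole list was higher with Sema4a-Ig in 6 pairs, by up to 0.497 in pair 7, and lower in pair 4 (-0.18) and pair 5 (-0.0858). With this score as a covariate no gene was called (smallest adjusted p = 0.0561), while all 990 kept their sign and 894 had an unadjusted p under 0.05. The 990 were chosen on the same pairs, which favours both counts. The median SE was 0.125 with the covariate and 0.1 without it. List medians read at no marker difference were 0.36 for KLF factors and trafficking targets (0.46 without the covariate), 0.29 for type I interferon stimulated genes (0.35), 0.27 for GBP and IRG genes (0.40), -0.28 for ribosome biogenesis (-0.35), -0.62 for T cell chemokines (-0.51) and -0.34 for effector cytokines (-0.29). Lists of other cell types each had 1 called member. Higher were Cd86 of 9 markers of dendritic cells and MHC class II, Cd79b of 9 B cell markers and Pf4 of 7 platelet markers. Nkg7 of 10 CD8 and NK markers and Car2 of 6 erythroid markers were lower. Over all genes 5.79% were called. Pf4 had a mean of 3.55 with IgG1, under the highest nonspecific control, and was lower in 2 pairs. The calls of Cd79b, Nkg7 and Car2 were lost without pair 3 or 7, that of Cd79b and Nkg7 also without pair 2, that of Nkg7 without pair 4 or 8, and that of Car2 without pair 6. In bulk RNA, fewer cells of a type and less RNA per cell cannot be told apart.

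**Figure D1:**
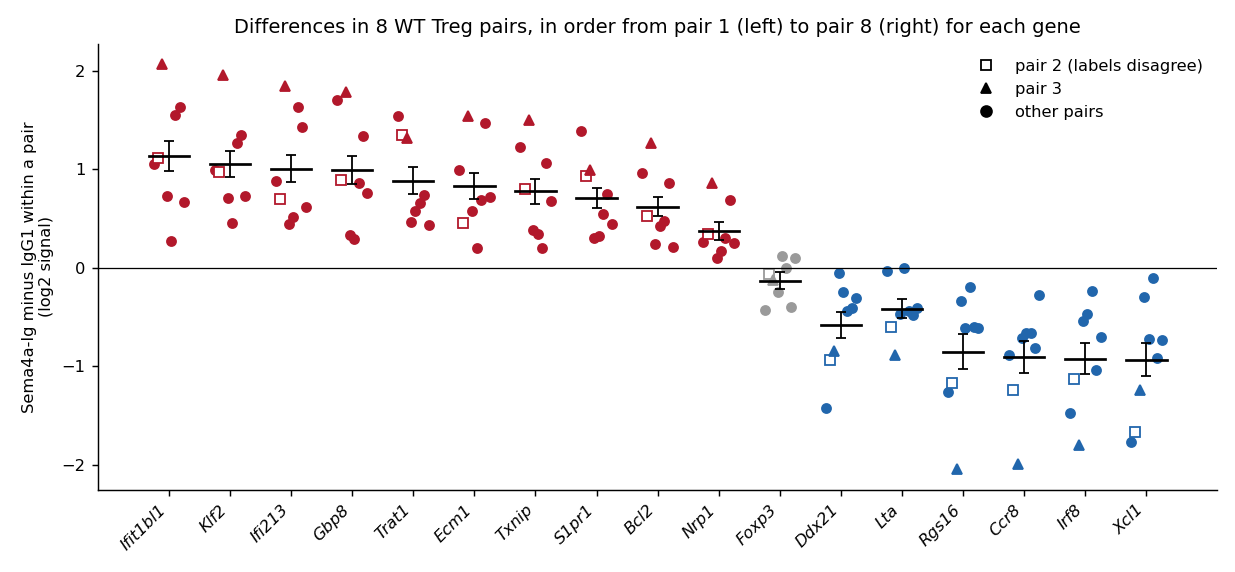
Sema4a-Ig minus IgG1 difference in log2 signal for named genes in WT Treg, with 1 point per pair and the mean over 8 pairs. All 8 pairs lie above 0 for Klf2 and S1pr1 and below 0 for Xcl1 and Irf8.

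Klf2 and the trafficking genes linked to it rose with Sema4a-Ig. Klf2 (Entrez 16598), a zinc finger factor of quiescent T cells, had a mean signal of 7.87 ± 0.24 (SD, n = 8, range 7.42 to 8.17) with IgG1 and 8.92 ± 0.24 (8.62 to 9.38) with Sema4a-Ig. In pairs 1 to 8 the difference was 1.00, 0.97, 1.96, 0.70, 0.45, 1.27, 1.34 and 0.73. Every pair was higher, pair 3 the most and pair 5 the least. The mean was 1.05 ± 0.13 (SE; limma adjusted p = 0.000392), a fold of 2.07. S1pr1 (Entrez 13609), the sphingosine-1-phosphate receptor that lets T cells leave lymphoid organs, went from 7.27 ± 0.19 (6.93 to 7.47) to 7.98 ± 0.19 (7.78 to 8.32). Its differences were 1.38, 0.93, 0.99, 0.30, 0.32, 0.55, 0.75 and 0.45, with a mean of 0.71 ± 0.10 (adjusted p = 0.000631), a fold of 1.63. Pair 1 was the highest here, and the groups did not overlap. An exact sign-flip test, two-sided, gave p = 0.00781 for each of Klf2, S1pr1, Xcl1, Irf8 and Nrp1, the smallest value that 8 pairs allow. Any gene with 1 sign in all 8 pairs gets this p, and 1263 (7.39%) of all genes had 1 sign. The test thus only restates that the signs were equal. Klf2, S1pr1, Xcl1 and Irf8 were given as markers of this comparison. Where these markers came from is not stated, so their change is not an independent check.

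Of 9 measured KLF factors and trafficking targets 5 rose and none fell. The other 3 were Klf3 (0.74 ± 0.13), Itgb7 (0.56 ± 0.10), the integrin chain of gut homing, and S1pr4 (0.46 ± 0.08). The list median was 0.46 beside -0.01 over all genes, and these 5 were higher in all 8 pairs. The same count of 5 was called when any pair was left out. Klf13 (0.22), Klf6 (0.09) and Klf10 (-0.16) did not pass.

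FOXO factors and quiescence targets were next. Of 16 measured genes 5 rose and none fell, with a median of 0.20. Txnip, which encodes an inhibitor of glucose uptake, rose by 0.77 ± 0.12, Tsc22d3, the glucocorticoid-induced leucine zipper, by 0.62 ± 0.12, and Cdkn1b, which encodes the cell cycle inhibitor p27, by 0.47 ± 0.09. The antiproliferative genes Btg2 (0.36) and Btg1 (0.26) were the other called members. Txnip ranged from 0.21 in pair 6 to 1.5 in pair 3, and Tsc22d3 was lower in pair 5 alone (-0.10). The genes of the factors did not pass: Foxo3 had 0.17 and Foxo1, with a mean near background, 0.13. The count fell to 3 without pair 3, 7 or 8. The call of Btg1 was lost without pair 1, 3, 7 or 8, and that of Btg2 without any one of pairs 1, 2, 3, 5, 7 and 8. With the mean of all probe sets of a gene the call of Cdkn1b was lost. The list then had 5 genes called higher and 1 called lower, with a median of 0.14.

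Nrp1, the receptor gene, was higher with its ligand. The signal was 8.40 ± 0.13 (8.15 to 8.53) with IgG1 and 8.77 ± 0.13 (8.63 to 9.01) with Sema4a-Ig. These values are centred on a mean that includes the KO arrays, so the Nrp1 level of WT Treg cannot be read from them. The pair differences were 0.26, 0.35, 0.86, 0.10, 0.17, 0.30, 0.69 and 0.25. All were positive, and the mean was 0.37 ± 0.09 (adjusted p = 0.022), a fold of 1.29. The call was lost without pair 3 or pair 7. In KO pairs the mean was 0.34. Nrp1 was the only called gene among 18 class 4 semaphorins, plexins and neuropilins, a list with a median of 0.02. Sema4a itself had 0.13 ± 0.14 (adjusted p = 0.687) and the plexin gene Plxnd1 had -0.29.

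Interferon-induced genes made up the list with the most called members. Of 33 measured type I interferon stimulated genes 16 rose and none fell, with a median of 0.35. Of 11 measured GBP and IRG genes, which encode GTPases that attack intracellular pathogens, 8 rose and none fell, with a median of 0.40. The median of the type I list was positive in each pair, from 0.11 in pair 5 to 0.69 in pair 7, and that of the GTPase list from 0.13 in pairs 4 and 5 to 0.93 in pair 3. Leaving out a pair gave 14 to 18 called genes of the first list. It gave 4 to 9 of the second, with 4 without pair 3 and 5 without pair 7.

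**Figure D2:**
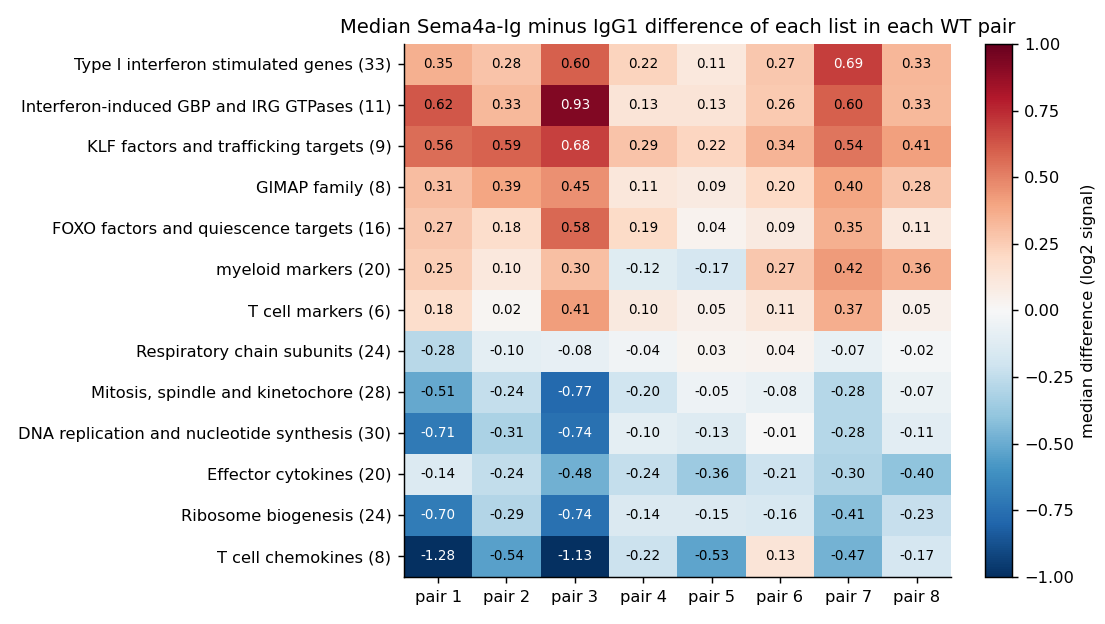
Median Sema4a-Ig minus IgG1 difference (log2 signal) of gene lists in each of the 8 WT pairs. The interferon lists were positive and the ribosome biogenesis and DNA replication lists negative in all 8 pairs.

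To show what these promoters share, short stretches upstream of the annotated starts are printed for 9 called genes, read from RefSeq (GRCm38.p6) in the orientation of the gene. In each stretch capitals mark 1 match to GAAA, 2 bases of any kind and GAAA again, or the reverse complement of that pattern, the core of the interferon-stimulated response element. The Gbp3 stretch holds a further match that overlaps the marked one and is left in lower case. Gbp2, Gbp3 and Gbp7 lie on chromosome 3 and the IRG genes Irgm2, Igtp and Tgtp1 on chromosome 11.

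Gbp3, chr3:142559979-142560028, plus strand: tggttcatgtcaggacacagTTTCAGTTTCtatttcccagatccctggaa
Gbp7, chr3:142530263-142530312, plus strand: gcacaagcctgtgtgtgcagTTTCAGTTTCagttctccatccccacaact
Gbp2, chr3:142620584-142620633, plus strand: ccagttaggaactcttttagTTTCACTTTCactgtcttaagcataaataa
Irgm2, chr11:58214893-58214942, plus strand: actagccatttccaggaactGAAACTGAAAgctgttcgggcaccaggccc
Igtp, chr11:58199502-58199551, plus strand: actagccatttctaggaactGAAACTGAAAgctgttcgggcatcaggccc
Tgtp1, chr11:48992294-48992343, minus strand: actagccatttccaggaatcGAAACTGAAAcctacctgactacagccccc
Ifi213, chr1:173599316-173599365, minus strand: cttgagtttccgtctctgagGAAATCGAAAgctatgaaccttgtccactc
Ifi203, chr1:173942498-173942547, minus strand: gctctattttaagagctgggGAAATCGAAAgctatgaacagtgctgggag
Ifit3, chr19:34583353-34583402, plus strand: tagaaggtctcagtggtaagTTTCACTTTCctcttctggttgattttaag

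Some of these stretches are near copies. Irgm2 and Igtp were identical at 48 of 50 bases and Irgm2 and Tgtp1 at 36, each centred on the motif. Ifi213 and Ifi203 share the same motif letters and were identical at 29. Windows of 300 bases (250 before the start and 50 after it) were searched on either strand. Of the 18 called interferon genes with a window, 13 held the motif (72.2%), against 3.60% of 13514 measured genes. Called or not, 12 of 23 genes of the type I list (52.2%) and 7 of 7 of the GTPase list held it. The high share among called interferon genes may therefore follow from the choice of the lists, and a link to the ligand response was not tested. The motif was in the windows of 12.9% of all genes called higher and of 2.70% of those called lower. Among genes called higher in neither interferon list the share was 10.0%. The search covered 10 motifs, and shares are given only for this motif and, below, for that of E2F factors. A match is a description of letters, not a bound site.

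The members behind these counts rose to different extents. Ifit1bl1, of the IFIT family of RNA-binding antiviral proteins, had the largest increase of all genes named by size. Its signal was 6.03 to 6.93 with IgG1 and 7.20 to 8.10 with Sema4a-Ig. Its pair differences were 1.06, 1.12, 2.06, 0.73, 0.27, 1.55, 1.63 and 0.67, with a mean of 1.13 ± 0.15 (adjusted p = 0.000392), a fold of 2.19. Ifi213, of the IFI200 family of nucleic acid sensors, followed with 1.01 ± 0.14 (0.44 to 1.85 over the pairs). Both were highest in pair 3. Rtp4 (0.80), Ifit1 (0.78) and Ifit3 (0.65) also rose, as did Irf7 (0.55 ± 0.12), which encodes a master factor of the type I interferon response. Irf7 was 0.02 in pair 5 and 1.41 in pair 3. Samhd1 (0.60), which depletes nucleotides, and Ddx58 (0.52), which encodes the RNA sensor RIG-I, were called in the same direction. Mx1, at background on these arrays, had -0.01.

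Among the GTPase genes Gbp8 rose by 0.99 ± 0.14 (adjusted p = 0.000546), from a median of 7.10 to 7.97. It ranged from 0.29 in pair 5 to 1.78 in pair 3. Gbp2b, a family member outside the list, rose by 0.81 ± 0.10, Gbp3 by 0.70 ± 0.10 and Gbp7 by 0.66 ± 0.10. The IRG genes moved less: Tgtp1 rose by 0.40, Irgm2 by 0.39 and Igtp by 0.28. The calls of Tgtp1, Irgm2 and Igtp were lost without pair 3 or 7, those of Irgm2 and Igtp also without pair 1 or 2, and that of Irgm2 also without pair 8. GBP, IRG and IFI200 genes lie in families of close copies, so probe sets may read more than 1 member, which was not tested.

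The IRF family, the factors that act on such elements, split. Of 8 measured genes Irf7 (0.55) and Irf2 (0.30) rose and Irf8 and Irf4 fell. Irf8 (Entrez 15900) had a signal of 9.5 ± 0.27 (9.16 to 9.94) with IgG1 and 8.58 ± 0.27 (8.14 to 8.92) with Sema4a-Ig. Its pair differences were -1.47, -1.13, -1.80, -0.54, -0.47, -0.23, -1.04 and -0.70, with a mean of -0.92 ± 0.16 (adjusted p = 0.00206). The groups did not overlap, and pair 6 showed the smallest decrease. Irf4, which T cell receptor signals induce, fell by 0.50 ± 0.15 (adjusted p = 0.0493) and was higher in pair 1 (0.14). The call of Irf4 was lost without any one of pairs 2 to 8, and that of Irf2 without pair 1, 2, 3 or 7. Irf9 (0.29, adjusted p = 0.0582) and Irf1 (0.25, adjusted p = 0.106) did not pass.

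Chemokine genes of activated T cells fell. Of 8 measured T cell chemokines 4 were lower and none higher, with a median of -0.51. Xcl1 (Entrez 16963), the chemokine that attracts cross-presenting dendritic cells, went from 8.63 ± 0.30 (8.21 to 9.04) to 7.69 ± 0.30 (7.28 to 8.11). Its pair differences were -1.77, -1.67, -1.24, -0.29, -0.72, -0.11, -0.92 and -0.73. All 8 were lower, with a mean of -0.93 ± 0.17 (adjusted p = 0.00326). Ccl3 fell by 0.86 ± 0.19, Ccl4 by 0.75 ± 0.17 and Ccl1 by 0.58 ± 0.17. Ccl3 was higher in pair 6 (0.14). Without pair 3 the list had 2 called genes and the calls of Ccl4 and Ccl1 were lost. That of Ccl1 was also lost without pair 1, 2, 7 or 8. With a trend in the prior variance the calls of all 4 were lost. Ccr8, the receptor of Ccl1, fell by 0.91 ± 0.16, from a range of 6.53 to 7.39 to a range of 5.39 to 6.25. Of 12 measured chemokine receptor genes it alone fell and Ccr2 alone rose, with a list median of -0.03. The call of Ccr2 was lost without pair 1, 2, 3, 6, 7 or 8.

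Of 20 measured effector cytokine genes 6 fell and 1 rose, with a median of -0.29. Pdgfb (-1.02 ± 0.22) and Il3 (-1.02 ± 0.23) had the largest means, and both were higher in pair 1 (0.37 and 0.10). The mean of Il3 with Sema4a-Ig (3.45) lay under the highest nonspecific control, so the size of its difference is not well measured. Ifng, the gene of interferon gamma, fell by 0.85 ± 0.22, Csf2, which encodes GM-CSF, by 0.75 ± 0.18, Fasl by 0.51 ± 0.12 and Lta by 0.41 ± 0.10. Csf1 (0.40 ± 0.10) was the member that rose. Without pair 3 only Pdgfb was called lower and no gene of the list higher. The call of Ifng was lost without pair 1, 2 or 3, that of Csf2 without pair 3 or 7, and that of Csf1 without pair 1, 3, 6 or 7. With a trend in the prior variance the calls of Ifng, Csf2 and Il3 were lost and 3 genes of the list remained lower, and with the mean of all probe sets that of Csf1 was lost. Il2 had -0.54 (adjusted p = 0.0867) and Il10 -0.34 (adjusted p = 0.293). Tbx21, which encodes the factor T-bet that drives Ifng, had -0.70 ± 0.22 and was lower in 8 of 8 pairs, but missed the threshold (adjusted p = 0.0594). None of the 13 effector lineage factors was called by limma.

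**Figure D3:**
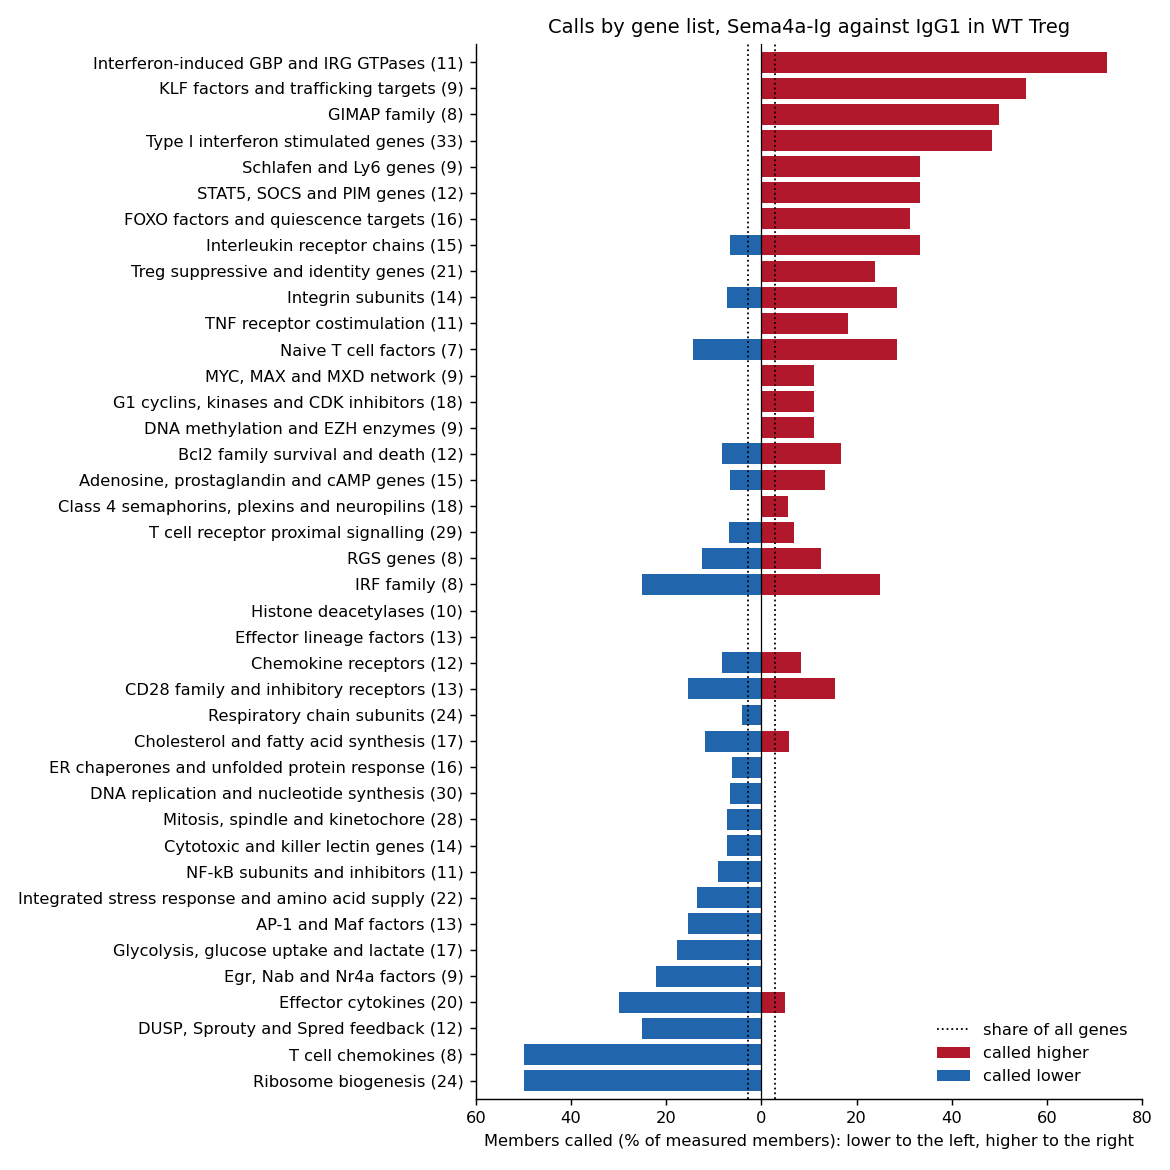
Share of the measured genes of each list (in percent, number measured in brackets) called higher or lower with Sema4a-Ig in WT Treg by limma at an adjusted p of 0.05, with dotted lines at the shares of all genes. Type I interferon stimulated genes had 16 higher and none lower, and ribosome biogenesis genes had 12 lower and none higher.

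Immediate factors of T cell receptor signalling were lower in part. Of 13 AP-1 and Maf factors Atf3 (-0.78 ± 0.17) and Fosl1 (-0.76 ± 0.15) fell, of 9 Egr, Nab and Nr4a factors Nr4a2 (-0.51 ± 0.15) and Nr4a3 (-0.41 ± 0.10), and of 12 DUSP, Sprouty and Spred genes Spry1 (-0.66 ± 0.14), Dusp16 (-0.52 ± 0.15) and Spry2 (-0.49 ± 0.13). No gene of these 3 lists rose. Sprouty and DUSP proteins dampen the MAP kinase pathway. Egr2 had -0.41 (adjusted p = 0.0806), Egr3 -0.25 and Egr1 -0.19. With a trend in the prior variance the calls of Atf3, Nr4a2 and Dusp16 were lost. Without pair 3 the calls of Atf3, Nr4a2, Nr4a3, Dusp16 and Spry2 were lost, and with the mean of all probe sets those of Dusp16 and Spry2. Without pair 1 or 7 neither Nr4a gene nor Dusp16 was called, the call of Nr4a2 was also lost without pair 2 or 8, and the call of Dusp16 was also lost without pair 2 or 6. Spry2, near background, was higher in pair 1 (0.19), and its call was lost without pair 5, 6, 7 or 8. Among 29 genes of proximal T cell receptor signalling, Trat1 (0.88 ± 0.14), which encodes an adaptor of the receptor complex, and Dgka (0.49 ± 0.09), which encodes a kinase that removes diacylglycerol, rose, while Ubash3b (-0.50) and Sh2d2a (-0.29) fell. The call of Ubash3b was lost without pair 1 or 3 and that of Sh2d2a without any one pair.

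Ribosome biogenesis genes were lower throughout the list. All 24 measured members had a negative mean, 12 were called lower, and the median was -0.35. The list median was negative in each pair, from -0.14 in pair 4 to -0.74 in pair 3. Polr1b, a subunit of RNA polymerase I, fell by 0.60 ± 0.11 and ranged from -0.25 in pair 5 to -1.05 in pair 1. Ddx21, a helicase of the nucleolus, fell by 0.58 ± 0.13, and Wdr12, of the complex that matures the large ribosomal subunit, by 0.58 ± 0.14. Both were lower in all 8 pairs. The count fell to 2 without pair 3, 4 without pair 1 and 5 without pair 7. The calls of Ddx21 and Wdr12 were lost without pair 3, and that of Wdr12 also without pair 1. Myc, which drives many of these genes, had -0.08 (adjusted p = 0.585).

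Genes of DNA replication and mitosis leaned the same way with fewer calls. All 30 replication and nucleotide synthesis genes were negative (median -0.30), but only the licensing factor gene Cdc6 (-0.58 ± 0.15) and the ribonucleotide reductase gene Rrm1 (-0.35 ± 0.10) fell. Of 28 mitosis genes 27 were negative (median -0.25), and Aurkb (-0.52 ± 0.13) and Cdk1 (-0.41 ± 0.10), both kinases of mitosis, fell. Mki67 had -0.15 (adjusted p = 0.283). Over all genes the median difference was -0.01 and 2.88% were called lower. In pair 6 the replication median was -0.01, beside -0.74 in pair 3 and -0.71 in pair 1. No replication gene was called without pair 2, 3 or 7, and 6 were called without pair 5 or 6. The call of Cdc6 was lost without pair 1, 2, 3 or 7, and that of Rrm1 also without pair 4. No mitosis gene was called without pair 1 or 3, the call of Aurkb was also lost without pair 7, and that of Cdk1 without pair 2. A motif TTTNGCGC, which E2F factors bind, or its reverse complement was in the windows of 38.5% of 26 replication genes, against 4.35% of 23 mitosis genes and 2.36% of all measured genes.

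Metabolic lists had small numbers of called genes, to be read beside 5.79% called over all genes. Of 17 glycolysis and glucose uptake genes 3 fell and none rose. They were Pfkl (-0.42), a subunit gene of phosphofructokinase, Hk2 (-0.45), a hexokinase gene, and Slc16a1 (-0.56), which encodes a lactate transporter. Without pair 3 none of the 3 was called. The calls of Slc16a1 and Pfkl were also lost without pair 1, those of Slc16a1 and Hk2 without pair 7, and that of Pfkl without pair 2. Of 17 cholesterol and fatty acid synthesis genes Acaca (-0.60 ± 0.12), which encodes acetyl-CoA carboxylase, and Idi1 (-0.36) fell and Elovl6 (0.47) rose. The calls of Idi1 and Elovl6 were lost without pair 3, and that of Elovl6 also without pair 2 or 7. Of 24 respiratory chain genes only Uqcrfs1 (-0.35) fell, and its call was lost without pair 1, 2, 3, 7 or 8.

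Genes of T cell adhesion, survival and cytokine receipt rose in part. Of 14 integrin genes Itgb3 (0.61 ± 0.11), Itgb7, Itga4 (0.48 ± 0.10) and Itga6 (0.48 ± 0.09) rose and Itgav (-0.42 ± 0.11) fell. The 4 rises stayed called when any single pair was left out, while the call of Itgav was lost without pair 1, 2, 3 or 7. With the mean of all probe sets of a gene 3 integrin genes were called higher and none lower, with the calls of Itga4 and Itgav lost. The survival gene Bcl2 rose by 0.62 ± 0.10 and was higher in all 8 pairs (0.21 to 1.26). Of 12 STAT5, SOCS and PIM genes Bcl2, Socs3 (0.60), Socs2 (0.30) and Cish (0.25) rose, with 2 called without pair 2, 3 or 7. The call of Cish was lost without pair 1, 2, 3 or 7 and that of Socs2 without pair 2, 3, 7 or 8. The SOCS and CISH proteins damp cytokine receptor signals. Of 15 interleukin receptor genes Il18r1 (0.52), Il6ra (0.50), Il6st (0.44), Il17rb (0.38) and Il2rb (0.30) rose and Il21r (-0.41) fell. Without pair 1, 3 or 7 the calls of Il6ra and Il2rb were lost, that of Il21r without pair 3, and that of Il6st with the mean of all probe sets. Of 8 GIMAP genes, lymphocyte GTPases, 4 rose and all had positive means (median 0.25). Gimap7 (0.42 ± 0.08) and Gimap3 (0.37 ± 0.08) led them, and 2 were called without pair 3, 7 or 8.

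Of 21 genes of Treg identity and suppression 5 rose and none fell, with a median of 0.09. Ecm1, which encodes an extracellular matrix protein, rose by 0.83 ± 0.13 and Nt5e, which encodes the adenosine-forming enzyme CD73, by 0.53 ± 0.08. Both were higher in all 8 pairs, Ecm1 from 0.20 to 1.54 and Nt5e from 0.31 to 0.93. The others were Fgl2 (0.39), Nrp1 and Ikzf2 (0.29 ± 0.08). Ctla4 had 0.11, Il2ra 0.09 and Tnfrsf18 0.09, and none of these passed. Without pair 3 or 7 only 2 genes of this list were called. The call of Ikzf2 was also lost without pair 1 or 6 and that of Fgl2 without pair 1, 2, 6 or 8. With the mean of all probe sets the calls of Nt5e and Ikzf2 were lost, and with a trend in the prior variance those of Ikzf2 and Fgl2.

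Smaller changes in other lists touched single genes. Of 9 genes of the MYC, MAX and MXD network Mxd4 (0.55 ± 0.10), which encodes a repressor that competes with MYC, rose, and the call held when any pair was left out. Of 9 Schlafen and Ly6 genes Slfn8 (0.58), Slfn1 (0.49) and Ly6e (0.35) rose, with 1 called without pair 3. The polycomb methyltransferase gene Ezh1 (0.45), whose call was lost with the mean of all probe sets, was higher in all 8 pairs, as did the phosphodiesterase gene Pde2a (0.60), whose call was lost without pair 3. Of 11 TNF receptor genes Tnfrsf25 (0.45) and Cd27 (0.29) rose, and neither was called without pair 3. Of 7 naive T cell factors Nsg2 (0.54) and Id3 (0.35) rose and Bach2 (-0.29), a repressor of effector genes, fell. The calls of Id3 and Bach2 were lost without pair 1, 2, 3, 4 or 7, that of Id3 also without pair 5 or 8, and that of Bach2 also without pair 6. Of 11 NF-kB genes only Nfkb2 (-0.30) fell, and its call was lost without any one pair other than pair 5.

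The remaining genes named by size came from no single list. Higher with Sema4a-Ig were Gm11346 (0.93), Itih5 (0.88), the protein phosphatase gene Ppm1l (0.84), Tmem71 (0.82), the calcium-binding protein gene S100a6 (0.81) and P2rx7 (0.80), which encodes a receptor for extracellular ATP. Astx6 (0.82 ± 0.23) had a mean of 3.64 with IgG1, under the highest nonspecific control, so the size of its difference is not well measured. It had 2.72 in pair 4 and 0.10 in pair 2, and its call was lost without pair 3, 4, 5 or 7. Ptger3 (-0.87), a prostaglandin E receptor gene, had means of 4.16 and 3.29, the second under that control, so its difference is not well measured either. Also lower were Rgs16 (-0.85 ± 0.18), a brake on G protein signals, the p53 target Perp (-0.85), Idi2 (-0.81), Spin4 (-0.80), 1110032F04Rik (-0.79), the nuclear pore gene Ndc1 (-0.78 ± 0.19) and Phactr2 (-0.76). Perp was -0.09 and -0.03 in pairs 1 and 2 and -1.99 in pair 3. The call of Ndc1 was lost without pair 1 or 3, and that of Rgs16 with a trend in the prior variance.

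In all, 607 genes of 41 lists were measured, and 77 were called higher and 58 lower, or 22.2% of them beside 5.79% of all genes. The lists were chosen with earlier results of these data known, so this share is a description.

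The separate experiment gave a set of genes that respond to stimulation, from other arrays. There limma called 135 of 18194 genes (0.742%) between activated and resting Treg, 95 higher and 40 lower. That count was 12 without activated replicate 1, 34 without resting replicate 2, 67 without activated replicate 3 and 36 without either conventional T cell array. The genes called lower on activation then numbered 1, 4, 15 and 6, in the same order. Of the 95 genes higher on activation 90 were measured with the ligand. Of these 85 had a negative difference with Sema4a-Ig (median -0.25 beside -0.01 over all genes), 8 fell and none rose. Part of this set, such as Mki67, Top2a, Mcm5 and Rrm2, is also in the replication and mitosis lists, so the result partly repeats theirs. Of the 40 genes lower on activation all were measured, 35 had a positive difference (median 0.17), 8 rose and none fell. Over all genes 2.91% were called higher and 2.88% lower with Sema4a-Ig.

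Klf2 was in the second set, with -0.95 ± 0.16 on activation (limma adjusted p = 0.0433) and 1.05 with Sema4a-Ig. Ifit1bl1 had -1.76 ± 0.30 (limma adjusted p = 0.0455) and 1.13. The other 6 that rose were Tsc22d3 (0.62), Ppm1h (0.59), Nr1d2 (0.53), L1cam (0.48), Cbx7 (0.44) and Cd86 (0.39). The 8 of the first set that fell were Spry1, Lag3 (-0.54), Irf4, Kif4 (-0.46), Hells (-0.44), Nr4a3, Nhp2 (-0.34) and Oxct1 (-0.27). Lag3, an inhibitory receptor gene, had 3.12 ± 0.25 on activation. With Sema4a-Ig it was lower in 6 pairs and higher in 2, and its call was lost without pair 1 or 3. The fallen set shrank to 1 gene without pair 3, to 2 without pair 1 or 7 and to 4 without pair 2, while 6 to 9 genes of the risen set were called when a pair was left out. Kif4, Hells, Nhp2, Oxct1, Nr1d2 and Cbx7 each lost the call without any one of pairs 1, 3 and 7. The median of the first set was negative in each pair, from -0.02 in pair 6 to -0.73 in pair 3, and the median of the second was positive in 7 of 8, with -0.004 in pair 5. Sizes differed between the experiments, as for Irf4, which had 3.73 ± 0.27 on activation and -0.50 with the ligand.

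Read the other way, 479 of the 498 genes higher with Sema4a-Ig were on the arrays of that experiment. Of these 74.1% had a negative difference on activation, against 49.4% of all genes, and 8 were called lower and none higher. Of 484 measured genes lower with Sema4a-Ig 39.0% were negative on activation. Both experiments share no array, while they differ in array type, mouse line and treatment.

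**Figure D4:**
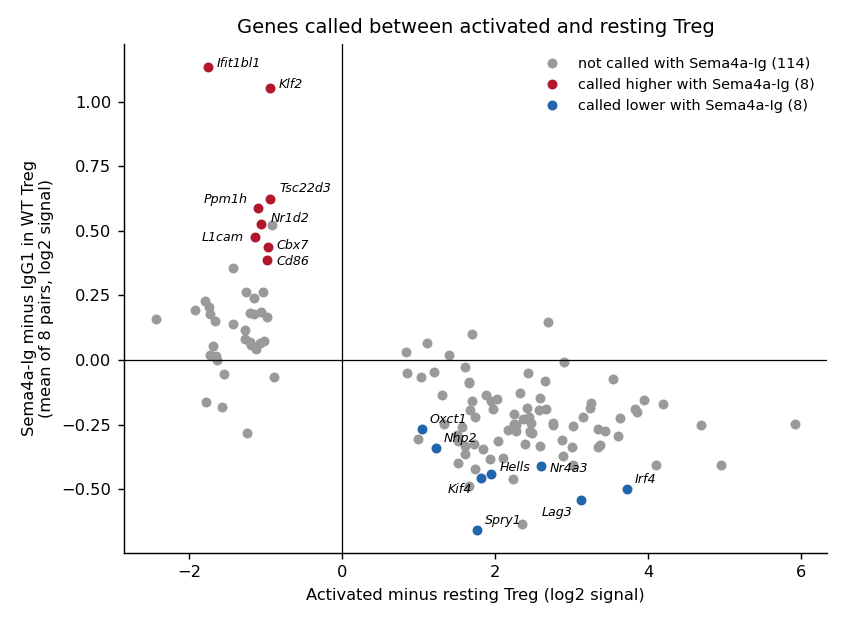
Genes called between activated and resting Treg, with their difference on activation (log2 signal, horizontal axis) against the mean Sema4a-Ig minus IgG1 difference of 8 WT pairs (vertical axis). Genes higher on activation lie mostly below 0 and genes lower on activation mostly above 0, with 8 called in each direction.

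Treg with the floxed neuropilin-1 gene showed the same signs with smaller means. Of the 990 genes called in WT, 931 (94.0%) had a mean of the same sign in the 8 KO pairs, against 64.8% of all genes, and the KO mean was smaller in size for 981. The 498 higher genes had a KO median of 0.16 and the 492 lower genes of -0.19. Because the genes were chosen for their WT means, a smaller KO mean follows in part from that choice. In KO pairs limma called no gene (0.0%; smallest adjusted p = 0.376), with 1787 genes (10.5%) at an unadjusted p under 0.05. The test of the difference between the genotypes also called none (0.0%; smallest adjusted p = 0.614), with 1015 genes (5.94%) at an unadjusted p under 0.05, of which 339 were among the 990. No gene was thus shown to respond differently in WT.

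Klf2 had 0.42 in KO against 1.05 in WT (adjusted p of the difference = 0.675), Irf8 -0.46 against -0.92 (0.83) and S1pr1 0.32 against 0.71 (0.791). Ifit1bl1 had 0.31 against 1.13, with an unadjusted p of 0.000713 for the difference and an adjusted p of 0.614. Ifng (-0.93 against -0.85), Csf2 (-0.77 against -0.75) and Nrp1 (0.34 against 0.37) had nearly equal means. The type I interferon list had a KO median of 0.09 beside 0.35 in WT, the ribosome biogenesis list -0.21 beside -0.35 and the T cell chemokine list -0.43 beside -0.51. Because pair means were equalised, the Nrp1 level cannot check the genotype labels.

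**Figure D5:**
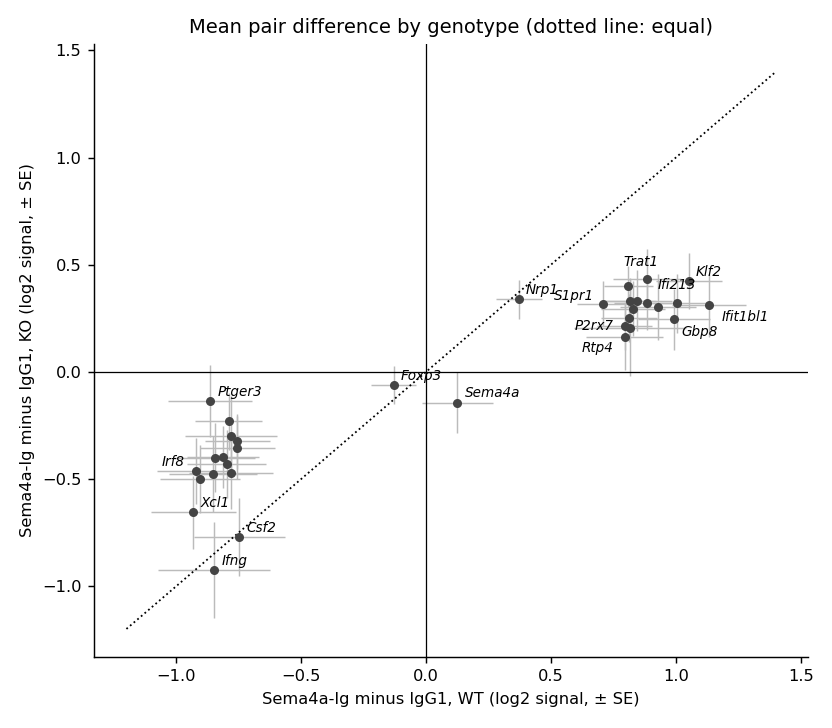
Mean Sema4a-Ig minus IgG1 difference (log2 signal, ± SE, 8 pairs each) of named genes in WT (horizontal axis) and KO Treg (vertical axis), with a dotted line of equality. Klf2 and the interferon genes lie nearer to 0 in KO, while Ifng, Csf2 and Nrp1 lie close to the line.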

How the data were processed

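The authors deposited log2 signals per probe set for 32 arrays of the ligand experiment and 8 of the sorted T cell experiment. Per the submitters' processing notes they used RMA and Partek 6.6, and per the labels' protocols RNA was prepared with TRIzol and the 3' IVT Express kit. No source used here gives further steps. The deposited log2 values have equal pair means, so pair differences were tested. Of 45141 probe sets 28898 had 1 gene in the platform annotation, 551 several and 15692 none, and each of 17097 genes was read by its single-gene probe set of highest mean.

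The 8 WT and 8 KO differences entered 1 limma 3.58.1 fit (R 4.3.3; lmFit and eBayes, two-sided, 14 residual degrees of freedom), with Benjamini-Hochberg adjustment over all genes and a threshold of 0.05. The sorted experiment was fitted with 3 group means. The WT fit was tested on simulated data of 17097 genes, 200 of them changed. It recovered 69.5% of those shifted by 0.5 (10 of 149 calls false) and 99% of those shifted by 1 (16 of 214). The simulated noise was independent between genes and equally wide in every pair, whereas the WT pairs had SDs over genes of 0.246 to 0.498. These shares may therefore not carry over to the real data. Array number limits the precision. Genes named were the 15 largest increases and 15 largest decreases of 1 sign in 8 pairs, a few fixed genes, and members of 41 lists. Members and lists were chosen with earlier results of these data known. Alternatives covered filters, probe sets, centring, prior variance, weights, covariates and each pair left out.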

Additional observations from a re-analysis of the deposited data

Results flagged for a closer look

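Of 84 sets of 8 pair values (named genes, and list medians), 5 held 1 pair far from the others, with a gap to its nearest neighbour, as a share of the whole range, above Dixon's critical value for 8. Chance alone marks about 1 set in 20. The median of the IRF family was 0.502 in pair 3, and the next highest pair had 0.176. The DUSP, Sprouty and Spred list had a median of -0.588 in pair 3, beside -0.264 in the nearest pair. The cholesterol and fatty acid synthesis list had -0.644 in pair 3, beside -0.169. The respiratory chain list had -0.281 in pair 1, beside -0.099. The histone deacetylase list had 0.23 in pair 2, the only positive value, beside -0.035, and the genotype labels of that pair disagree. None of the 10 histone deacetylase genes was called by limma.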

How the results depend on the processing

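The count of 990 genes in WT was 4417 with no replicate block (4 group means over 32 arrays), 484 from the 8 WT pairs alone, 1688 with only genes of a mean log2 value of at least 5, 620 with a trend in the prior variance and 0 with the myeloid score as a covariate, where the smallest adjusted p was 0.0561 and the effect is read at no difference in the markers. With 1 pair left out it lay between 258 and 1069. The fit with no replicate block takes the 2 arrays of a pair as independent although their mean was fixed before deposit. Median centring (966), array weights (944), the Actb 3' minus 5' signal as a covariate (1020), the mean of all probe sets (1151) and every single-gene probe set (1089) moved the count by less than 1.5 times. The test between genotypes called 530 genes with no replicate block and 0 in its other alternatives. The activation count of 135 lay between 12 and 168 with 1 array left out. Of the 30 genes named by size, 25 stayed called without pair 3 and 24 with the trend. The means of the 990 called genes kept their sign in every alternative that tested them, except 1 gene with the mean of all probe sets. Because the 990 were chosen on the same pairs, the kept signs follow largely from that choice. Changes of 0.5 on the log2 scale were recovered only in part (69.5%) in simulated data.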

Other observations

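Some gene groups changed without a common direction. Of 13 CD28 family and inhibitory receptor genes Cd200r1 (0.40) and Cd96 (0.36) rose and Lag3 (-0.54, but higher in 2 pairs) and Cd200 (-0.40) fell. CD200 and CD200R1 are ligand and receptor of an inhibitory pair, and their RNA moved apart in all 8 pairs. Without pair 3 none of the 4 was called. Of 8 RGS genes, which shorten G protein signals, Rgs1 rose (0.43 ± 0.08) in all 8 pairs and Rgs16 fell (-0.85 ± 0.18) in all 8. Of 12 Bcl2 family genes Bcl2 (0.62) and the death gene Bcl2l11 (0.39) rose and the survival gene Bcl2l1 (-0.39) fell, the latter 2 with calls lost without pair 1, 3 or 7, and that of Bcl2l1 also without pair 4 or 8. Of 22 stress response and amino acid supply genes Cth (-0.98), Shmt2 (-0.48) and the amino acid transporter gene Slc7a5 (-0.40) fell and none rose. Cth, near background, was higher in pair 2 (0.15) and -2.11 in pair 7, the call of Slc7a5 was lost without pair 1, 3, 6 or 7, and with a trend in the prior variance the calls of both were lost.

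The differences of WT pair 3 and KO pair 3 had a correlation of 0.372 over 17097 genes, as a description without a test, while WT pair 3 and the other KO pairs had a median of 0.144. These 2 pairs share no array. Of the 8 WT pairs all but pair 1 were closest to KO pair 3, which had the largest SD over genes among KO pairs (0.467).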
